A study of Rattus norvegicus with 7 samples.

Results

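The lipid-handling genes of the alveolar macrophage that act with PPARG and LXR were followed in NR8383 cells, a rat alveolar macrophage line, after exposure to ZnO NPs (zinc oxide nanoparticles). The set held 10 genes, namely Pparg, Nr1h3, Fabp4, Fabp5, Lpl, Cd36, Abca1, Abcg1, Apoe and Plin2, and took in every non-control probe that carried one of these gene names, out of 36174 gene names on the array. These were 15 of the 45598 probes of the array, printed on 60 of its 58717 spots. Total RNA was measured on one-color Agilent rat arrays after 4 h without serum, in 4 unexposed samples (control) and in 3 samples exposed to 2 µg/mL of ZnO NPs according to the sample labels, while the methods of the study give another dose. NR8383 was established from the lavaged lung of a normal rat and is kept as a partly adherent, partly floating culture of 1 cell line.

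PPARG is a nuclear receptor that heterodimerises with RXR, binds fatty acid ligands and is needed for the identity and the lipid turnover of alveolar macrophages, which clear surfactant lipid from the air spaces. The liver X receptor alpha, encoded by Nr1h3, is a nuclear receptor for oxysterols that switches on cholesterol export when sterol accumulates. Known targets of one or both receptors include fatty acid carriers (Fabp4, Fabp5), enzymes and receptors of lipid uptake (Lpl, Cd36), efflux transporters with their lipid acceptor (Abca1, Abcg1, Apoe) and the coat protein of lipid droplets (Plin2).

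Each value below is the log2 of the background-subtracted intensity of a probe minus the log2 of the 75th percentile of its array, so 0 stands for that percentile and 1 unit for a doubling. The 75th percentile lay between 958.2 and 1489.4 on control arrays and between 979.6 and 1602.8 on ZnO arrays, and no spot was saturated. All arrays came from 1 slide, with control samples in its upper row and ZnO samples in its lower row, so the effect of exposure and that of an array's place cannot be told apart. Feature Extraction graded the quality of control replicates 3 and 4 and of ZnO replicates 2 and 3 as to be evaluated. Of 12 macrophage markers, 10 were well above background and none differed at an adjusted p under 0.05. The 6 epithelial and 4 B cell markers gave no tested probe, while 2 of 5 fibroblast, 2 of 4 endothelial, 1 of 4 T cell, 2 of 4 neutrophil and 1 of 4 adipocyte markers did. Marco, a scavenger receptor of alveolar macrophages, was below the filter on dim probes. As the RNA came from whole cultures, fewer cells of a kind and less RNA per cell cannot be told apart.

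All 10 genes had at least 1 tested probe, that is, a probe well above background on all arrays of a group, and 14 of the 15 probes were tested. No gene of the set differed between ZnO and control cells at an adjusted p under 0.05 (limma, Benjamini-Hochberg over 20063 probes), in a comparison where 0.0498% of all probes passed. The 10 probes that passed were all higher in ZnO cells, and they included those of the metallothionein Mt2A, at a log2 fold change of 5.83, and of the zinc exporter Slc30a1, at 1.37. At an unadjusted p under 0.05, 2 of the 10 genes differed (Fabp4 and Apoe), beside 5.92% of all probes. Both were higher in ZnO cells, beside 3.07% of all probes, and 0 were lower, beside 2.85%.

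The probes of the genes with the largest differences, and the overlapping ends of the paired Fabp5 probes, which bear on how far the Fabp5 readings are separate, were as follows, written 5′ to 3′ as in the array files. Capitals mark the 16 bases that both Fabp5 probes contain.
Fabp4 probe: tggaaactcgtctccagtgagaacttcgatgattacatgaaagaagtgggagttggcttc
Apoe probe: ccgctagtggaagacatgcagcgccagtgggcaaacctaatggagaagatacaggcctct
Fabp5 first probe, last 30 bases: cccatgtcagaccgTTGGTTTACCCAGGAT
Fabp5 second probe, first 30 bases: TTGGTTTACCCAGGATcattcctttggtta
The Fabp4 probe shared no run longer than 5 bases with either Fabp5 probe, although both genes encode fatty acid binding proteins. The Fabp4 probe was placed by the files at chr2:93536175-93538589 of rn4 on the plus strand, a stretch wider than its own 60 bases, and the Apoe probe at chr1:79003795-79003854 on the minus strand.

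Among the receptors, Pparg read 4.04, 3.85, 3.95 and 3.61 in control replicates 1 to 4 and 3.88, 3.74 and 3.58 in ZnO replicates 1 to 3 (chr4:151617128-151617187 of rn4, plus strand). The groups overlapped, with control replicate 4 and ZnO replicate 3 lowest. The mean was 3.86 ± 0.19 (SD, n = 4) in control and 3.74 ± 0.15 (SD, n = 3) in ZnO cells, a log2 fold change of -0.13 with a standard error of 0.12 and a 95% interval of -0.41 to 0.16 (limma, adjusted p = 0.971). Nr1h3 gave 2.26, 2.41, 2.24 and 2.48 in control samples and 2.37, 2.45 and 2.53 in ZnO samples (chr3:75542215-75542274, minus strand). Again the groups overlapped, although ZnO replicate 3 was the highest array. The log2 fold change of Nr1h3 was 0.10 with a standard error of 0.09 and an interval of -0.10 to 0.30 (adjusted p = 0.956), so the expression of neither receptor differed beyond the spread between replicates.

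Fabp4, a carrier of long-chain fatty acids in macrophages and adipocytes, showed the largest difference of the set. Its probe read -1.47, -1.04, -1.22 and -0.75 in control samples and -0.95, -0.53 and -0.43 in ZnO samples. ZnO replicates 2 and 3 lay above every control sample, whereas ZnO replicate 1 lay below control replicate 4. The mean was -1.12 ± 0.30 (SD, n = 4) in control and -0.64 ± 0.28 (SD, n = 3) in ZnO cells. This gave a log2 fold change of 0.48 with a standard error of 0.19 and an interval of 0.03 to 0.92, that is, a fold change of 1.39 (1.02 to 1.89), at an unadjusted p of 0.0382 and an adjusted p of 0.827 (limma). Of the adipocyte markers, Adipoq, Lep and Plin1 were below the filter on dim probes, and Cidec read 0.19 ± 0.16 (SD, n = 4) in control and 0.04 ± 0.19 (SD, n = 3) in ZnO cells.

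Fabp5, the epidermal type of the same carrier family, was measured by a pair of probes of 10 spots each. The first read 4.70, 5.20, 4.59 and 5.14 in control samples and 4.56, 5.09 and 5.17 in ZnO samples, and the second 4.22, 4.71, 4.15 and 4.74, and 4.10, 4.65 and 4.83. Both probes split the arrays in the same way across the groups, with control replicates 2 and 4 and ZnO replicates 2 and 3 high, and control replicates 1 and 3 and ZnO replicate 1 low. Over the 7 arrays the probes correlated at r = 0.99 (exact permutation p = 0.00179, adjusted over 4 probe pairs 0.00716). The spread between arrays, 0.32 as the SD pooled within groups for the first probe, exceeded the SD among its 10 spots on any array, which was 0.05 to 0.09. The log2 fold changes were 0.03 with a standard error of 0.21 (interval -0.45 to 0.51) and 0.07 with a standard error of 0.22 (-0.44 to 0.59), and both had an adjusted p that rounded to 1.00.

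**Figure D1:**
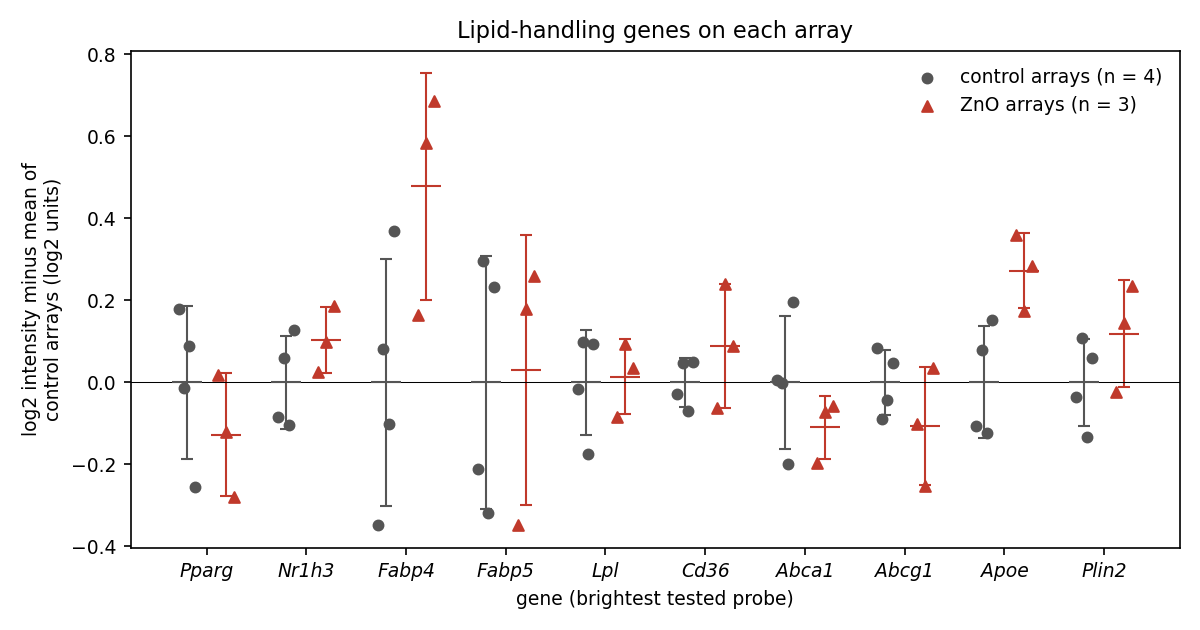
Log2 intensity of the 10 lipid-handling genes on each array (y axis, log2 units, minus the gene's mean over control arrays), with the brightest tested probe of each gene on the x axis. Circles are the 4 control arrays, triangles the 3 ZnO arrays, and bars the mean and SD of a group; the ZnO triangles of Apoe lie above all control circles, and those of the other 9 genes overlap with them.

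In the uptake of lipid, lipoprotein lipase (Lpl) frees fatty acids from triglyceride and CD36 takes up fatty acids and oxidised lipoproteins at the cell surface. The brighter Lpl probe, averaged over 10 spots, read 5.61, 5.73, 5.46 and 5.72 in control samples and 5.55, 5.72 and 5.66 in ZnO samples. Its log2 fold change was 0.01 with a standard error of 0.09 (interval -0.20 to 0.23), and that of the other Lpl probe (chr16:22533294-22533353, minus strand) was 0.05 with a standard error of 0.12. Cd36, on the 10 spots of its brighter probe (chr4:13525426-13525485, plus strand), gave 4.96, 5.03, 4.91 and 5.03 in control and 4.92, 5.22 and 5.07 in ZnO samples. ZnO replicate 2 was the highest array and ZnO replicate 1 was within the control range, with a log2 fold change of 0.09, a standard error of 0.09 and an interval of -0.12 to 0.29 (adjusted p = 0.971). A further Cd36 probe, which lies near the 5′ end of the transcript, read -0.88, -0.77, -0.74 and -0.63 in control and -0.35, -0.71 and -0.89 in ZnO samples. There ZnO replicate 1 was the highest and ZnO replicate 3 the lowest array, and over the 7 arrays the pair of Cd36 probes correlated at r = -0.26 (exact permutation p = 0.545), whereas the pairs of Lpl and Abcg1 reached 0.74 (exact permutation p = 0.0552) and 0.70 (exact permutation p = 0.0720).

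For cholesterol efflux, ABCA1 loads lipid-poor apolipoprotein and ABCG1 passes cholesterol to HDL, and both genes are classical LXR targets. Abca1 read -2.98, -2.99, -3.19 and -2.79 in control and -3.18, -3.06 and -3.05 in ZnO samples (chr5:70493613-70493672, minus strand). The ZnO values lay inside the control range, with a log2 fold change of -0.11, a standard error of 0.10 and an interval of -0.35 to 0.13. This probe of 1 spot was dim, at intensities of 129.5 to 187.5 on control and 107.7 to 194.1 on ZnO arrays. It was well above background on every array. The other Abca1 probe was well above background on 1 of 4 control arrays and on 0 of 3 ZnO arrays and was not tested. Abcg1 gave 5.71, 5.53, 5.58 and 5.67 in control and 5.52, 5.37 and 5.65 in ZnO samples on its brighter probe (chr20:9459359-9459418, plus strand). ZnO replicates 1 and 2 lay below every control sample and ZnO replicate 3 did not, and the log2 fold change was -0.11 with a standard error of 0.09 and an interval of -0.32 to 0.10 (adjusted p = 0.958). The dimmer Abcg1 probe (chr20:9461740-9461799) differed by -0.01 with a standard error of 0.08.

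Apoe, the lipoprotein component that accepts exported lipid and carries it to receptors, was the gene of the set whose groups did not overlap, beside 7.38% of all tested probes whose groups did not (3.79% with ZnO above and 3.59% with ZnO below all control arrays). Its probe read -4.54, -4.36, -4.56 and -4.28 in control samples and -4.08, -4.26 and -4.15 in ZnO samples. Every ZnO sample was above every control sample, though ZnO replicate 2 and control replicate 4 lay close together. The mean was -4.43 ± 0.14 (SD, n = 4) in control and -4.16 ± 0.09 (SD, n = 3) in ZnO cells, a log2 fold change of 0.27 with a standard error of 0.10 and an interval of 0.05 to 0.49, or a fold change of 1.21 (1.04 to 1.41), at an unadjusted p of 0.0221 and an adjusted p of 0.788 (limma). The probe was near the background, at intensities of 49.2 to 72.7 on control and 58.1 to 90.3 on ZnO arrays, and the SD among its 10 spots on an array reached 0.28. The groups of Apoe overlapped when arrays were centred on the spike-in probes, when normexp background correction preceded the 75th percentile, and in the deposited table. Normexp was run with an added offset of 50, and the deposited table is without background subtraction. Both shrink the log2 differences of a probe this dim.

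Plin2, the perilipin that coats lipid droplets in most cells, read 1.62, 1.76, 1.52 and 1.72 in control and 1.63, 1.80 and 1.89 in ZnO samples (chr5:105719064-105719123, minus strand). ZnO replicates 2 and 3 were the highest arrays, and ZnO replicate 1 lay inside the control range. The log2 fold change was 0.12 with a standard error of 0.09 and an interval of -0.10 to 0.34 (adjusted p = 0.952).

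**Figure D2:**
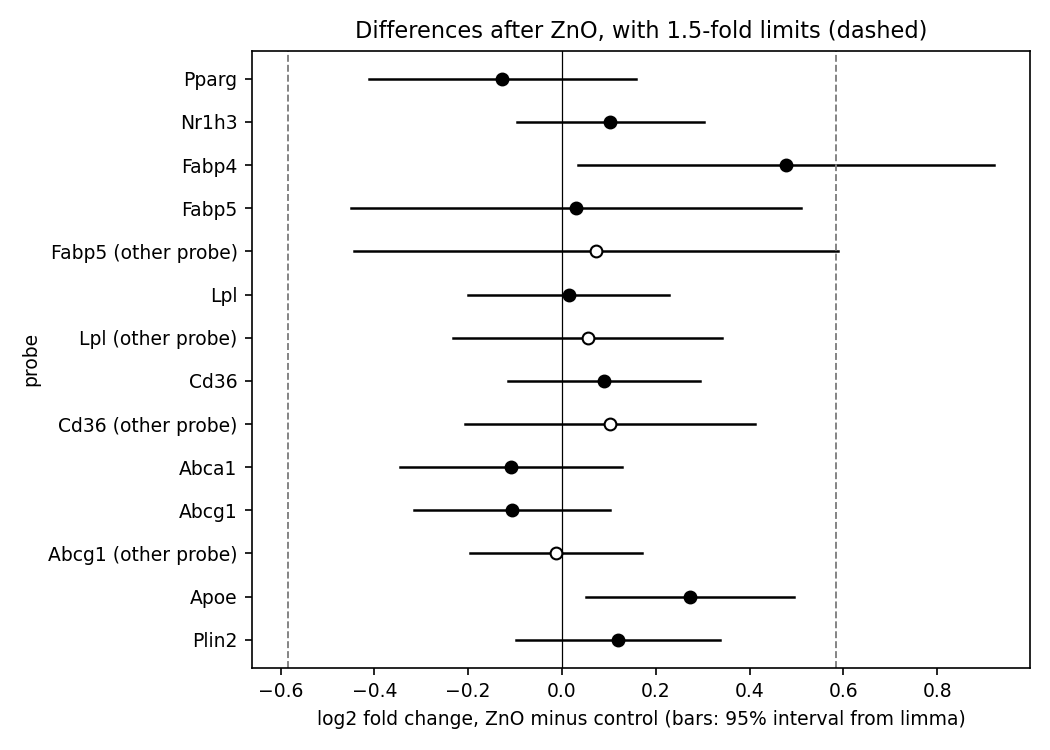
Log2 fold change (x axis, ZnO minus control) of the 14 tested probes of the lipid-handling genes, with 95% intervals from limma as bars; filled points are the brightest probe of a gene and open points its other tested probe. Dashed lines mark a 1.5-fold difference either way, which the intervals of 2 probes, those of Fabp4 and of the second Fabp5 probe, cross.

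Across the set, the log2 fold changes of the brightest probes ran from -0.13 (Pparg) to 0.48 (Fabp4), with a median of 0.06 beside -0.01 over all tested probes. The sign was above 0 for 7 of 10 genes, but for 10 of 10 with arrays centred on the spike-in probes, which moved the median of all tested probes to 0.14, and for 5 of 10 with arrays centred on their median. The 95% intervals of 12 of the 14 tested probes lay within a 1.5-fold difference in both directions. The exceptions were Fabp4, whose interval reached a fold change of 1.89, and the second Fabp5 probe, whose interval ended just past that limit. The genes differed in their spread between replicates. The SD pooled within groups was 0.32 for Fabp5 and 0.29 for Fabp4, larger than that of 87.6% and 85.1% of all tested probes, and 0.17 for Pparg, larger than that of 61.9%. The SDs of the other 7 genes lay between 0.10 and 0.13, below the median of 0.14 over all probes.

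Relations between the genes from array to array did not pass after adjustment. Of the 45 pairs of genes, 13 had an exact permutation p under 0.05 over the 7 arrays, 10 with a positive and 3 with a negative correlation, and 0 had an adjusted p under 0.05 over the 45 pairs. The share of such pairs among other genes was not computed, so the count cannot be read as particular to this set. Both receptors ran in opposite directions at this scaling, with r = -0.94 and rho = -0.96 between Pparg and Nr1h3 (exact permutation p = 0.00337 and 0.00278, adjusted 0.0679 and 0.111). Without the 2 arrays farthest from the median of Pparg r was -0.91, and with the group means removed it was -0.94. The correlation turned to 0.91 when arrays were centred on the spike-in probes and was -0.51 with median centring, so its sign depended on the scaling. Spike-in centring, which leaves the overall brightness of an array in every gene, made all 45 pairs positive, at 0.73 to 1.00, against 29 of 45 with the 75th percentile. Pparg and Fabp4 correlated at r = -0.91 and rho = -0.93 (exact permutation p = 0.00714 and 0.00675), and this also turned, to 0.73, with spike-in centring.

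**Figure D3:**
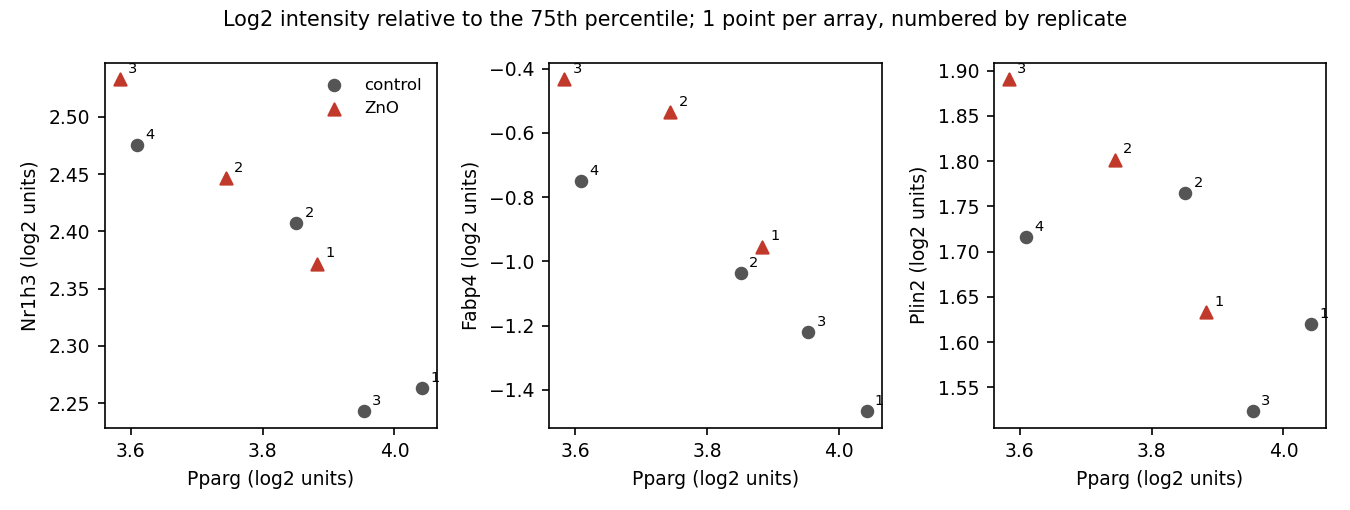
Values of Nr1h3, Fabp4 and Plin2 (y axes) against Pparg (x axes), in log2 units relative to the 75th percentile of the array, with 1 point for each of the 4 control arrays (circles) and 3 ZnO arrays (triangles), numbered by replicate. The points run downward from left to right in each panel, with r = -0.94, -0.91 and -0.77, and control and ZnO arrays are interspersed; with arrays centred on the spike-in probes the sign of each was positive.

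The closest positive relations had the same sign at every scaling, but so did others, among them Fabp5 with Plin2 and Lpl with Plin2. Keeping the sign therefore does not set the closest ones apart, and spike-in centring made every pair positive. Nr1h3 correlated with Fabp4 at r = 0.92 (exact permutation p = 0.00635, adjusted 0.0679) and with Plin2 at r = 0.91 (exact permutation p = 0.00516, adjusted 0.0679), and Fabp5 with Lpl at r = 0.90 (exact permutation p = 0.00754, adjusted 0.0679). Over the alternatives other than spike-in centring, r was 0.80 to 0.94, 0.81 to 0.95 and 0.87 to 0.93, respectively. Of the 16177 other named genes tested, 0.198% correlated with Pparg as negatively as Nr1h3 did, and 0.624% as negatively as Fabp4 did. As positive as the relations of Nr1h3 with Fabp4, of Nr1h3 with Plin2 and of Fabp5 with Lpl were those of 0.575%, 0.736% and 1.29% of genes with the first of each pair. Each share counts the partner gene itself. The pairs compared were those with the lowest exact permutation p in the set, picked on these same values. Small shares follow in part from that choice and are no separate support for these relations. No gene of the set correlated with the 75th percentile of the arrays or their share of spots well above background after adjustment.

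The wider pathway was read from 6 lists of other genes, comprising receptors and coregulators, LXR and SREBP1 targets, PPAR targets and fatty acid oxidation, fatty acid uptake, lipid droplets, and cholesterol traffic. They held 96 genes, of which 94 were named on the array and 78 were tested, and 0 were higher and 0 lower in ZnO cells at an adjusted p under 0.05 (limma). At an unadjusted p under 0.05, 1 gene was higher (1.28%) and 2 were lower (2.56%), against 3.21% and 2.65% of all named genes, so the lists lay at or below the background. Angptl4, a secreted inhibitor of lipoprotein lipase and PPAR target, was the one above, with 0.14, 0.27, 0.05 and 0.52 in control and 0.60, 0.49 and 0.75 in ZnO samples. Only control replicate 4 overlapped with the ZnO group. Its log2 fold change was 0.37 with a standard error of 0.13 and an interval of 0.08 to 0.66 (unadjusted p = 0.0192, adjusted 0.764).

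Those below, picked after their values were seen, were Npc1, which moves cholesterol out of lysosomes, and Lpcat3, an LXR target that remodels phospholipids. Npc1 read 1.80, 1.76, 1.62 and 1.73 in control and 1.44, 1.48 and 1.48 in ZnO samples, with no overlap and a log2 fold change of -0.26, a standard error of 0.07 and an interval of -0.42 to -0.10 (unadjusted p = 0.00606, adjusted 0.645). Lpcat3 differed by -0.18 with a standard error of 0.07 (adjusted p = 0.823), also with every ZnO sample below the control samples, as was the case for Abca3, a phospholipid transporter, at -0.10. In the set and the lists together, these genes and Apoe were the ones whose groups were apart. They were 4 of 88 genes by brightest probe (4.55%), beside 7.38% of all tested probes, which include the dimmer probes of a gene.

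Within the lists, the highest and lowest log2 fold changes were 0.01 for Nr1h2 (LXR beta) and -0.31 for Ncoa2 (a coactivator) among 12 receptors and coregulators, and 0.15 for Apoc2 (the cofactor of lipoprotein lipase) and -0.28 for Mylip (a ligase that degrades the LDL receptor) among 10 LXR and SREBP1 targets. With the mean of its tested probes, Ncoa2 was at -0.12. The probes of Ncoa2 and Apoc2 had control means of -4.04 and -4.59, close to that of Apoe at -4.43, which was near the background. Ucp2, a mitochondrial carrier, was lowest at -0.13 among 14 PPAR targets and oxidation genes. Acbd3 was highest at 0.06 and the acyl-CoA synthetase Slc27a2 lowest at -0.31 among 10 uptake genes. Among 17 genes of droplets, esterification and lipolysis, Agpat2, which makes phosphatidic acid, was highest at 0.04 and the perilipin Plin5 lowest at -0.68 with a standard error of 0.30. The Plin5 probe was well above background on 4 of 4 control arrays but on 1 of 3 ZnO arrays, so it was tested only through the control group. Its value was -0.13 after normexp at either scaling, -0.19 in the deposited table and -0.35 without ZnO replicate 2. The normexp offset of 50 and the background kept in the deposited table shrink log2 differences of dim probes. Those smaller values are therefore no separate reading of Plin5. Among 15 genes of cholesterol traffic, Ch25h, which makes an LXR ligand, was highest at 0.16 and the transporter Abca7 lowest at -0.29. Single arrays set the size of several of these values: without ZnO replicate 1, Slc27a2 was at -0.076, Mylip at -0.063, Ncoa2 at -0.65 and Abca7 at -0.55, and without ZnO replicate 3, Ncoa2 and Abca7 were both at -0.15. The median log2 fold changes of the lists, in the order named, were -0.09, -0.12, -0.04, -0.01, -0.04 and -0.06, and none of these genes had an adjusted p under 0.05.

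In all, 19 of the 78 tested list genes (24.4%) had a log2 fold change above 0, against 48.4% of 16178 named genes, with medians of -0.04 and -0.005. Over the 7 scalings the number of list genes above 0 ran from 11 to 63, while the number above the median of all named genes was 20 to 24. Ppara, Ppargc1a, Fasn, Scd1, Fabp1, Fabp3 and Vldlr were among the genes whose probes were below the filter.

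**Figure D4:**
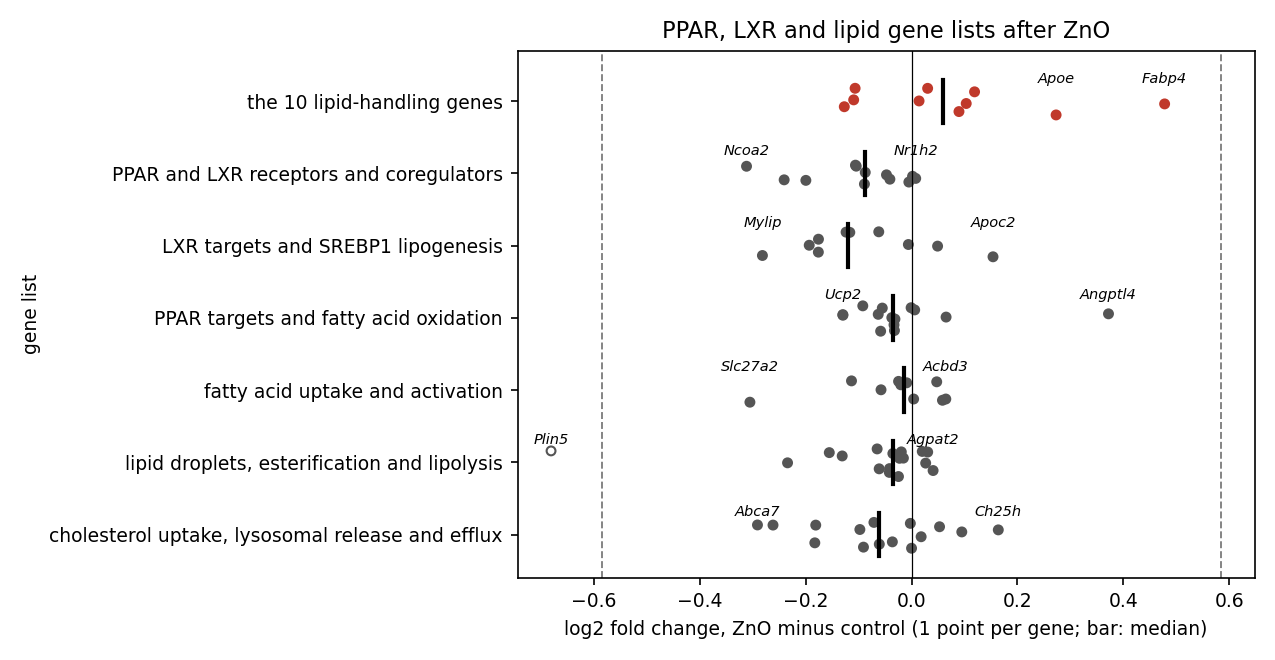
Log2 fold change (x axis, ZnO minus control; 1 point per tested gene) of the 10 lipid-handling genes and of the 6 lists of other PPAR, LXR and lipid genes (y axis), with the list median as a vertical bar and 1.5-fold limits as dashed lines. The median of the lipid-handling genes is 0.06 and those of the lists are -0.12 to -0.01. The open point is Plin5, the one gene shown that was not well above background on every array. It is drawn at -0.68 and was at -0.13 after normexp, whose offset of 50 shrinks log2 differences of dim probes. With arrays centred on the spike-in probes the median over all list genes was 0.11.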

How the data were processed

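NR8383 RNA was labelled with Cy3 and hybridised to 1 array per sample (4 control, 3 ZnO). Scans were read by the authors with Agilent Feature Extraction (version 11.0.1.1), and the deposited files of single arrays hold the intensity of each spot after background subtraction, without normalization between arrays. The methods name percentile normalization in GeneSpring, Benjamini-Hochberg adjustment and limits of p under 0.001 and 1.5-fold, but no test. The table deposited for the whole series holds the median intensity of each spot, without background subtraction, and was used as an alternative. Another alternative was normexp background correction, run with an added offset of 50.

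For each array the log2 of the 75th percentile over non-control spots was subtracted from log2 intensity, spots of a probe were averaged without outlier flags, and probes well above background (on at least 50% of their spots) on all arrays of a group were tested in R 4.3.3 with lmFit and eBayes of limma 3.58.1, checked on simulated data, with Benjamini-Hochberg adjustment over 20063 probes. A gene takes its brightest tested probe. limma gave the standard errors and 95% intervals, and the number of arrays limits their precision. Correlations over the 7 arrays were tested by exact permutation, two-sided, in Python 3.11.15 with numpy 2.4.6, and were also computed at each scaling and without each array, which was chosen after seeing the data.

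The genes and lists were chosen with earlier results of these data known. Of each list, the genes with the highest and the lowest log2 fold change are named. The labels number the replicates but do not say that they were separate cultures. The methods of the study state a plan of 4 biological replicates for each NP, and 3 ZnO samples were available here. The p-values measure the spread between these samples, which may in part be technical. The array files give probe positions on rn4, and exon annotation of that build was not used here.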

Additional observations from a re-analysis of the deposited data

Results flagged for a closer look

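In the dimmer Abcg1 probe, control replicate 2 stood apart at 1.83 from the other control samples at 2.00 to 2.03, with a gap of 0.849 of the range of the group, above the limit of 0.829 for 4 samples. Chance gives such a gap in about 1 of 20 groups. The ZnO samples read 1.93, 1.92 and 2.03, and the brighter Abcg1 probe read 5.53 on the same array and 5.58 to 5.71 in the other control samples.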

How the results depend on the processing

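No gene of the set and none of the lists passed an adjusted p of 0.05 under any alternative run, and the lowest adjusted p of a set gene was 0.207, for Fabp4 with array weights. The log2 fold changes of Nr1h3, Fabp4, Cd36 (brighter probe), Apoe and Plin2 kept their sign under all 20 alternatives, with ranges of 0.05 to 0.25, 0.36 to 0.64, 0.01 to 0.24, 0.11 to 0.42 and 0.06 to 0.27. Not all of these could turn a sign. The changes of filter and of variance left the estimates as they were, as did the mean of all probes for genes with a single tested probe. The replicate block gave the same estimates as leaving out control replicate 4. Of all probes, 10 passed, against 15 with array weights, 14 with a trended and robust variance, 5 with spike-in centring, 5 with no filter on dim probes, 4 when they had to exceed 1.5-fold at an adjusted p under 0.001 and 4 with the replicate block. The block left control replicate 4 alone. Same-numbered samples deviated together at correlations of -0.09, 0.21 and -0.24, and ZnO replicates 1 and 3 correlated best with control replicates 3 and 2, so the numbers were not taken to pair the samples. A slide block was not run because there was 1 slide.

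With spike-in centring the sign turned for Pparg (0.023), Abca1 (0.041), both Abcg1 probes (0.043 and 0.14), Abca3 (0.052) and Ucp2 (0.020), and the correlations of Pparg with Nr1h3 and Fabp4 became 0.91 and 0.73, with 0.94 for Nr1h3 with Fabp4, 1.00 for Nr1h3 with Plin2 and 0.98 for Fabp5 with Lpl. All 45 pairs were positive at this scaling, so passing there says nothing of these pairs. Median centring turned Fabp5 (-0.0072), Lpl (-0.023) and Nr1h2 (-0.030). The dimmer Abcg1 probe was also above 0 in the deposited table (0.016), with normexp and quantile normalization (0.011), with normexp and the 75th percentile (0.039) and with the replicate block (0.0066). Nr1h2 was also below 0 with array weights (-0.052), the deposited table (-0.012), normexp and quantile normalization (-0.027) and normexp and the 75th percentile (-0.0079), and Acbd3 with the mean of its probes (-0.042). Spike-in centring moved each of the 29 named values by 0.15 and median centring by -0.0375, so those turns of sign are of values smaller than a shift common to all genes. The cause of the others was not tested.

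With each array left out in turn, 7 to 8 probes passed in all. Many values near 0 moved by more than 1.5 times; of the larger ones, without ZnO replicate 1, Slc27a2, Mylip, Ncoa2 and Abca7 moved to -0.076, -0.063, -0.65 and -0.55, without ZnO replicate 2 Ncoa2 to -0.14, Abca7 to -0.17 and Plin5 to -0.35, and without ZnO replicate 3 Ncoa2 and Abca7 to -0.15. The values that turned in sign had ranges of -0.085 to 0.22 for the first and -0.079 to 0.29 for the second Fabp5 probe, -0.044 to 0.064 for the brighter and -0.017 to 0.15 for the other Lpl probe, -0.048 to 0.22 for the dimmer Cd36 probe, -0.061 to 0.0094 for the dimmer Abcg1 probe, -0.061 to 0.067 for Nr1h2, -0.21 to 0.40 for Apoc2, -0.044 to 0.17 for Acbd3 and -0.0025 to 0.076 for Agpat2. Signal near background limits Apoe, whose difference was 0.27 on the main scale and 0.11 after normexp and the 75th percentile. The offset of 50 in normexp shrinks log2 differences of dim probes, so that drop is no separate reading of Apoe.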

Other observations

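The mean profile of the lipid-handling genes, each scaled to unit variance, was compared with those of 10099 tested genes outside the set. Genes named only by a LOC, RGD, ENSRNO or accession-like name were left out here. Snx8, Rac2 and Slpi had the array profiles most like that mean, with r = 0.99 in each case over the 7 arrays. Of the genes compared, 119 had r above 0.9. Snx8 is a sorting nexin, Rac2 a small GTPase of blood cells and Slpi a secreted protease inhibitor. Of the set itself, Plin2, Nr1h3, Fabp5 and Lpl correlated with that mean profile at 0.93, 0.93, 0.92 and 0.91, Abcg1 at -0.04 and Pparg at -0.84. The mean profile was built from the genes of the set, so each of them contributes to its own correlation with it. All these values share the arrays and their scaling and are given as a description.

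RefSeq promoter windows of GRCr8 around gene starts were matched for 6 of the 10 genes, with 10 windows. None held AGGTCA on either strand, nor a direct repeat of it spaced by 1 base (DR1) or by 4 bases (DR4), where 16.2%, 0.0538% and 0.00598% of 33469 such windows of the annotation did. This says only that these letters are not in these short windows.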
